A study of Mus musculus with 6 samples.

Results

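Genes that moved together under hairpins against either isoform of pyruvate kinase were examined in C2C12, an established mouse muscle precursor line whose cells form multinucleated myotubes in low serum. Cells stably carrying a short hairpin RNA against the Pkm1 isoform (shPkm1, 2 libraries) or the Pkm2 isoform (shPkm2, 2 libraries) were set together against cells stably carrying a scrambled hairpin (shScr, 2 libraries, genotype labelled WT). These 6 libraries are the whole series. All were made from total RNA harvested 48 h after fetal bovine serum was replaced by horse serum with insulin, transferrin and selenium. The labels do not say whether a line was a clone or a pool, how many hairpin sequences were used, or whether the libraries of a group came from separate cultures. The p-values therefore measure the spread between these libraries, which may be technical. Both hairpin groups were compared with the same 2 control libraries, so a property of the shScr line cannot be told apart from a change in both hairpin lines.

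A gene was called shared when all 4 hairpin libraries lay above, or all 4 below, both shScr libraries, and the mean of the hairpin groups differed from shScr by at least 2-fold. It also had to pass the edgeR quasi-likelihood test with a Benjamini-Hochberg adjusted p under 0.05. Finally, the hairpin groups had to be alike, meaning a log2 difference between them of at most 0.5 with its 95% interval inside 1 in either direction. Of 17558 genes in the table, 12643 had enough counts to be tested and 817 were shared, 474 of them higher and 343 lower than shScr. The values of these libraries chose the shared genes, so their differences from shScr, and the small differences between their hairpin groups, are given as a description, without p-values.

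Pyruvate kinase makes pyruvate and ATP in the last step of glycolysis, and the Pkm gene gives the Pkm1 or Pkm2 enzyme by mutually exclusive exons. Among the shared genes, those that fell furthest belong to the interferon response. In this pathway, sensors of foreign or misplaced RNA and DNA cause cells to secrete interferons. Interferon receptors then act through Jak kinases on transcription factors that bind the interferon-stimulated response element before genes of antiviral proteins. Many sensors and signalling proteins are themselves products of such genes, so the pathway raises its own components.

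The targeted gene was examined first. The Pkm gene occupies 59656576 to 59679372 of chromosome 9 in GRCm38. Its level in CPM, the counts scaled to library size with a TMM composition factor, was 3019 and 3473 in shScr, 1998 and 2186 in shPkm1, and 3658 and 3794 in the shPkm2-labelled libraries. The pooled log2 fold change was -0.22 (SE 0.115, edgeR adjusted p 0.108), and Pkm was not shared because its hairpin groups lay on opposite sides of shScr. In the deposited TPM values the Pkm1 isoform stood at 545.8 and 588.8 in shScr, 242.7 and 218.2 in shPkm1, and 254.1 and 254.2 in the shPkm2-labelled libraries. The Pkm2 isoform stood at 1073 and 1517 in shScr, 1278 and 1379 in shPkm1, and 2700 and 2630 in the shPkm2-labelled libraries. The Pkm1 isoform was thus lower in all 4 hairpin libraries, whereas the Pkm2 isoform was not lower in the libraries named for it, and that group is given below by its label.

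Libraries held between 18216896 and 19796036 estimated counts. Across genes, log2 CPM of same-group libraries correlated at 0.991 to 0.997, and of libraries from different groups at 0.870 to 0.932. Genes are not independent replicates. The muscle genes Des and Myod1 were present in every library, at 1119 to 5245 CPM and at 78.2 to 409 CPM. Of 35 markers of other cell types 32 were in the table, 11 of them never exceeded 3 counts and 5 were at 0 in all libraries (Epcam, Krt18, Cfd, Ibsp and Sox10).

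Both directions were common in the pooled comparison. Of 12643 genes, 8509 (67.3%) passed the edgeR test, 4271 (33.8%) as higher and 4238 (33.5%) as lower. In 7472 (59.1%) all 4 hairpin libraries lay on one side of both controls, above them in 3682 (29.1%) and below them in 3790 (30%). Passing genes on one side with at least a 2-fold change numbered 1328 higher (10.5%) and 1224 lower (9.68%). Only some of these were alike in the hairpin groups, 35.7% of those above shScr and 28% of those below, which left the shared sets of 474 (3.75%) and 343 (2.71%). Most shared changes were modest, with a median fold of 2.36 among higher and 2.38 among lower genes. The extremes were 25.5-fold higher for Aqp1 and 28.2-fold lower for Igtp. With library totals in place of the composition factor, the median of all genes moved up by 0.26 on the log2 scale and 68.6% of the calls were higher, against 50.2%. The shared set then held 809 higher and 173 lower genes, and 44.9% of the 343 shared lower genes were kept.

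**Figure D1:**
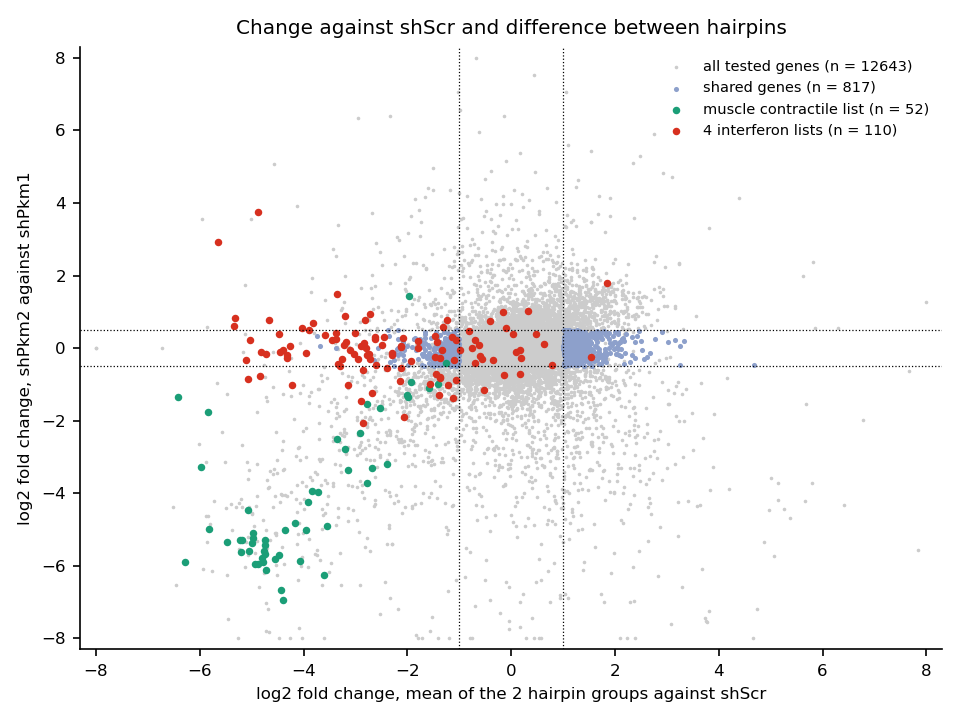
Each point is 1 of 12643 tested genes, with the log2 fold change of the mean hairpin group against shScr on the horizontal axis and that of shPkm2 against shPkm1 on the vertical axis, both limited to 8 in either direction for display; dotted lines mark a 2-fold change and the bound of 0.5. Most interferon genes (red) lie to the left, with 64 of 110 alike in the hairpin groups against 57.3% of all tested genes, while the muscle genes (green) lie to the left and far below the horizontal centre line, and the 817 shared genes (blue) fill the 2 outer bands.

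The further a shared fall went, the larger was the part held by interferon genes. The 4 lists of interferon genes (sensors, signalling, effectors and antigen presentation) had 110 tested members, 0.870% of all tested genes, and supplied 47 of the 343 shared lower genes. Of the 62 that fell at least 4-fold, 37 were on these lists, of 23 that fell at least 8-fold 20 were, and of 7 that fell at least 16-fold all 7 were. Of the 39 genes shared and at least 4-fold higher, 0 were. Over the 110 members, 96 passed the edgeR test as lower and 5 as higher, against 33.5% and 33.8% of all tested genes. Their median log2 fold change was -2.42, and that of all tested genes was 0.02. The hairpin groups were alike in 64 of the 110, a share close to the 57.3% of all tested genes, and 54 differed between shPkm1 and shPkm2 with an edgeR adjusted p under 0.05, against 53% of all tested genes. In bulk RNA, fewer cells with an active pathway and less RNA per cell cannot be told apart.

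Interferon transcripts themselves were at or near the limit of detection. Ifnb1, which encodes interferon beta, had 2 and 1 counts in shScr and 0 in all 4 hairpin libraries. Ifng, which encodes interferon gamma, had 0 and 15 counts in shScr, 3 and 0 in shPkm1, and 1 and 1 in the shPkm2-labelled libraries. Ifne and Ifnz had 0 counts throughout, and Ifna4 and Ifnab had at most 1. A difference in these transcripts was not detectable at this depth.

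Among 17 tested sensors of RNA and DNA, 14 fell, 0 rose and 8 were shared and lower, with a median of -3.03. Over all tested genes 33.5% fell, 33.8% rose and 2.71% were shared and lower. The hairpin groups were alike in 9 of the 17 sensors (52.9%), against 57.3% of all tested genes. Zbp1, a sensor of Z-form nucleic acid, had 118 and 159 CPM in shScr, 6.50 and 6.88 in shPkm1, and 6.50 and 6.30 in the shPkm2-labelled libraries. All 4 hairpin values were far below both controls, for a pooled log2 fold change of -4.40 (SE 0.124) and a difference between hairpins of -0.06 (95% interval -0.45 to 0.32). Oas2, which makes 2-5A from ATP on binding double-stranded RNA, had 36.8 and 38.6 CPM in shScr and 1.37 to 2.31 in the hairpin libraries. Ddx58, which encodes the RNA helicase RIG-I, fell less, from 220 and 234 CPM in shScr to 50.8 and 52.7 in shPkm1 and 51.9 and 52.9 in the shPkm2-labelled libraries. Its fold changes were nearly equal, at -2.13 and -2.11 on the log2 scale. Oasl2 (-3.23), Oas3 (-3.03), Adar (-1.47), Tlr3 (-1.33) and Eif2ak2 (-1.14), which encodes the kinase PKR, were the other shared sensors. Sensors that fell without being alike included Ifih1, which encodes MDA5, at 0.93 higher in the shPkm2-labelled libraries than in shPkm1, and Dhx58 at 1.01 lower. Mavs, the mitochondrial adaptor of these helicases, had a pooled log2 fold change of 0.10 (adjusted p 0.372), Sting1 of -0.16 (adjusted p 0.130) and Cgas of 0.33 (adjusted p 0.0865) in the edgeR test. Members that did not pass or were not alike were named after their values were seen.

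Genes of the receptors and signal transducers moved both ways. Of 18 tested signalling genes, 11 fell, 4 rose and 16 were alike in the hairpin groups, against 33.5%, 33.8% and 57.3% of all tested genes. The receptor gene Ifnar1 rose by 0.48 (adjusted p 0.000439), Ifngr1 by 0.79 (adjusted p 1.43e-05) and the kinase gene Jak1 by 0.62 (adjusted p 4.97e-05) in the edgeR test, all less than 2-fold. Jak2, the kinase that serves the interferon gamma receptor among others, was the shared higher member. It had 14.4 and 16.6 CPM in shScr, 50.3 and 47.4 in shPkm1, and 43.5 and 39.0 in the shPkm2-labelled libraries, a fold change of 2.90. Ifngr2 (-0.62, adjusted p 1.74e-05) and Tyk2 (-0.57, adjusted p 0.000135) fell, and Ifnar2 had 0.16 (adjusted p 0.119) in the edgeR test.

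Several transcription factors of the list were lower. Stat2 had 276 and 290 CPM in shScr and 48.5 to 53.1 in the hairpin libraries, and Irf9 had 124 and 128 CPM against 26.1 to 33.8. Both proteins carry the signal of the interferon receptors to the nucleus. Irf7, the factor that amplifies interferon production, fell 19.1-fold, from 243 and 249 CPM in shScr to 11.5 and 13.8 in shPkm1 and 14.0 and 12.1 in the shPkm2-labelled libraries. Irf5 (-1.06) was also shared and lower. Irf1 (-0.76) fell by less than 2-fold, as did Irf3 (-0.59), a factor that switches on interferon genes. Usp18, which removes Isg15 from proteins and restrains the receptor, fell furthest in the list at -5.35 (SE 0.0927), from 254 and 266 CPM to between 5.06 and 7.87. It missed the bound for alike genes because the shPkm2-labelled libraries were 0.61 higher (95% interval 0.32 to 0.90).

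Effectors showed the steepest shared falls. Of 57 tested, 53 fell, 1 rose (Ifitm1, at 1.84), and 52 had all 4 hairpin libraries below both controls, against 33.5% lower, 33.8% higher and 30% below over all tested genes. The median was -2.81 in shPkm1 and -2.87 in the shPkm2-labelled libraries. Single members differed both ways. By the direct edgeR test 15 were higher and 12 lower in the shPkm2-labelled libraries than in shPkm1, and 53% of all tested genes differed in either direction. Of the 57 members 33 (57.9%) were alike, a share close to the 57.3% of all tested genes. Isg15, a ubiquitin-like protein that is joined to other proteins, had 623 and 604 CPM in shScr, 23.8 and 25.6 in shPkm1, and 19.9 and 24.2 in the shPkm2-labelled libraries. Igtp, a GTPase acting on vacuoles that hold pathogens, had 309 and 251 CPM in shScr, 10.8 and 9.81 in shPkm1, and 8.76 and 10.4 in the shPkm2-labelled libraries. In both genes even the lower control lay far above the highest hairpin library. Ifit1, which binds viral RNA lacking host cap methylation, had 420 and 388 CPM in shScr and 19 to 23 in the hairpin libraries. Bst2, the tetherin that holds budding viruses at the membrane, had 597 and 659 CPM in shScr and 25.1 to 37.5 in the hairpin libraries. Rtp4 (-3.45), Apol9a (-3.39) and Irgm2 (-3.95) were also shared, and 30 effectors were shared in all.

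**Figure D2:**
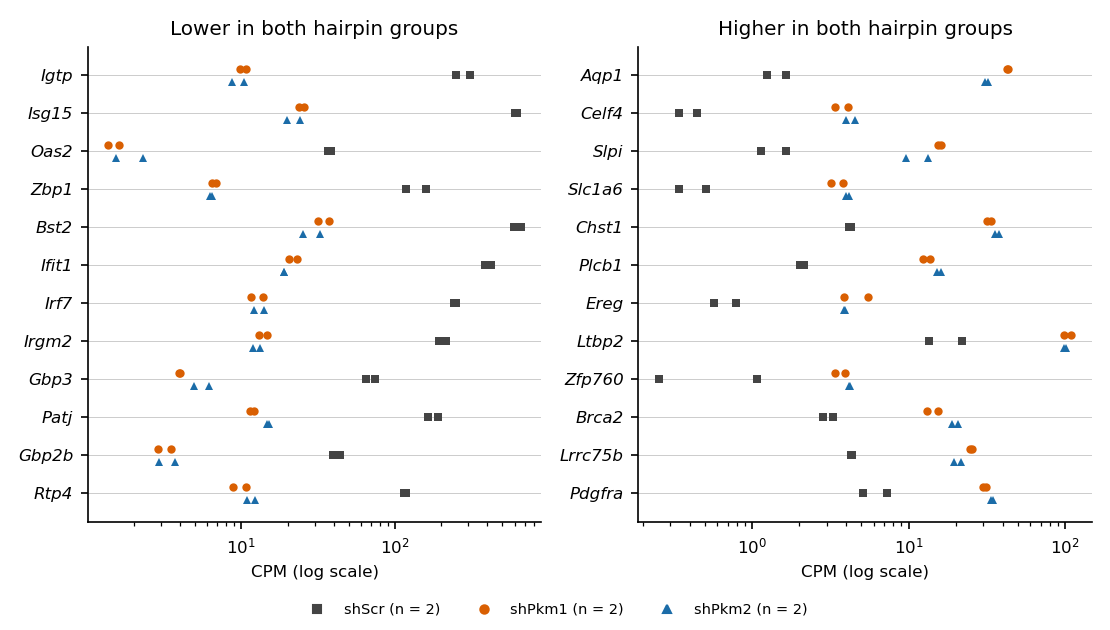
CPM on a log axis in each of the 6 libraries for the 12 largest shared falls (left) and the 12 largest shared rises (right); squares are shScr, circles shPkm1 and triangles shPkm2, with 2 libraries each. The choice of shared genes required the 4 hairpin points of each gene to lie on one side of both shScr points, with the hairpin groups alike.

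Members of gene families with similar sequence followed. Of 17 tested GTPases of the Gbp and Irg families, 16 fell and 7 were shared and lower, with a median of -3.67, where 33.5% of all tested genes fell and 2.71% were shared and lower. Gbp3 had 64.9 and 74.3 CPM in shScr, 3.94 and 3.99 in shPkm1, and 6.17 and 4.96 in the shPkm2-labelled libraries. Gbp2b had 39.5 and 44.0 CPM in shScr and 2.88 to 3.72 in the hairpin libraries. All 8 tested genes of the p200 family, whose proteins bind DNA through HIN domains, fell, beside the same shares over all genes, and Mndal (-1.48), Ifi211 (-1.31), Ifi204 (-1.25) and Ifi203 (-1.19) were shared. These 2 families were grouped by gene name after the data had been seen. Their genes, like the Oas, Apol9 and H2 genes, resemble each other, so the split of reads among members is uncertain.

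The choice of shared genes did not use the sequence before the start sites. The interferon lists, however, hold genes of a pathway that acts through the interferon-stimulated response element. RefSeq promoters of GRCm38.p6, 250 bases before to 50 after the start, were searched on both strands for the core of the interferon-stimulated response element, which is G and 3 A given 2 times with any 2 bases between. Of the 47 shared lower genes on the interferon lists 38 had a promoter in the table, and 17 of these (44.7%) held the core. All tested genes of these lists held it in 41 of 92 promoters (44.6%), nearly the same share. Over all shared lower genes it was held by 28 of 287 (9.76%). The core was found in 11 of 249 other shared lower genes (4.42%) and in 9 of 388 shared higher genes (2.32%). It was found in 943 of all 27025 promoters in the table (3.49%), which include genes that were not tested. Interferon genes that fell without being shared held it in 22 of 42 promoters (52.4%). The gamma-activated site TTCNNNGAA was found in 7 of the 38 (18.4%), in 21 of the 92 (22.8%) and in 8.47% of all promoters. Interferon genes that fell without being shared held this site in 10 of 42 promoters (23.8%), and other shared lower genes in 15 of 249 (6.02%). The 8 windows below, chosen after the matches were seen and not a full list, are examples of single, overlapping and separate matches, with the core in capitals on either strand, running on where matches overlap:
Isg15, chr4:156200850-156200909, minus strand: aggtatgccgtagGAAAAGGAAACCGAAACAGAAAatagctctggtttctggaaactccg
Bst2, chr8:71537562-71537621, minus strand: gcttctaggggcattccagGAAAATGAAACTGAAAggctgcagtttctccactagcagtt
Ifit1, chr19:34640779-34640838, plus strand: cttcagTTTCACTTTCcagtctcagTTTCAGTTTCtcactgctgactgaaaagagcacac
Igtp, chr11:58199497-58199555, plus strand: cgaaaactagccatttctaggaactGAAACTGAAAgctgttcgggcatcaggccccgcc
Irgm2, chr11:58214888-58214947, plus strand: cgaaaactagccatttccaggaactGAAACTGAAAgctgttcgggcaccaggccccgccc
Gbp3, chr3:142559980-142560039, plus strand: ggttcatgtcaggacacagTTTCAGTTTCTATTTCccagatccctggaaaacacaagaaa
Stat2, chr10:128270251-128270310, plus strand: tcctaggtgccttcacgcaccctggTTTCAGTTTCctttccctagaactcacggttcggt
B2m, chr2:122147523-122147582, plus strand: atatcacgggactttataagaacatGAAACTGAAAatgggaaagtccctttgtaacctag

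The nearest core ended 25 bases before the start of Igtp, 57 before that of Isg15 and 213 before that of Stat2. Isg15 held 3 overlapping matches, Bst2 and Gbp3 2 overlapping ones, and Ifit1 2 separate ones. Igtp and Irgm2, which lie close together on chromosome 11, have almost the same letters around the core. A match is a description of the letters and not evidence of a bound factor.

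Antigen presentation genes fell in the pooled comparison, by more in the shPkm2-labelled libraries for most members. All 18 tested members passed the edgeR test as lower, against 33.5% of all tested genes, with a median of -1.08 in shPkm1 and -1.78 in the shPkm2-labelled libraries. The hairpin groups were alike in 6 of the 18, against 57.3% of all tested genes. By the direct edgeR test 12 were lower in the shPkm2-labelled libraries than in shPkm1, and 53% of all tested genes differed in either direction. B2m, the light chain of class I molecules, was shared, with 797 and 725 CPM in shScr, 414 and 377 in shPkm1, and 285 and 350 in the shPkm2-labelled libraries. Psmb10 (-2.63), a subunit of the immunoproteasome, Psme2 (-1.47) and Tapbpl (-1.38) were the other shared members. The heavy chain gene H2-K1 had 419.9 and 440.0 CPM in shScr, 197 and 211 in shPkm1, and 98.1 and 109 in the shPkm2-labelled libraries, and its difference between hairpins was -0.98 (95% interval -1.20 to -0.76). Psmb8, another immunoproteasome subunit, differed most at -2.07.

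**Figure D3:**
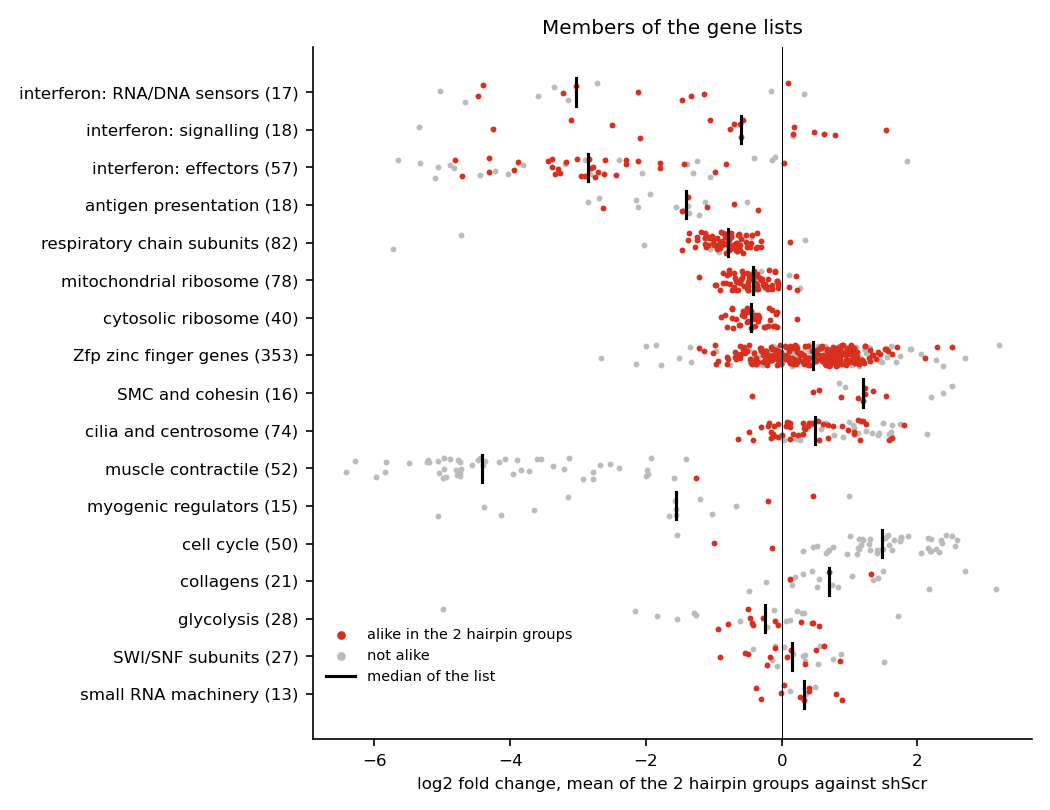
Pooled log2 fold change of every tested member of 17 gene lists, 1 point per gene, with the number tested in brackets, members alike in the hairpin groups in red, others in grey, and the list median as a black bar. Interferon effectors centre at -2.86 with 33 of 57 points red (57.9%), close to the 57.3% of all tested genes. The muscle contractile list centres at -4.42 with 1 red point.

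**Figure D4:**
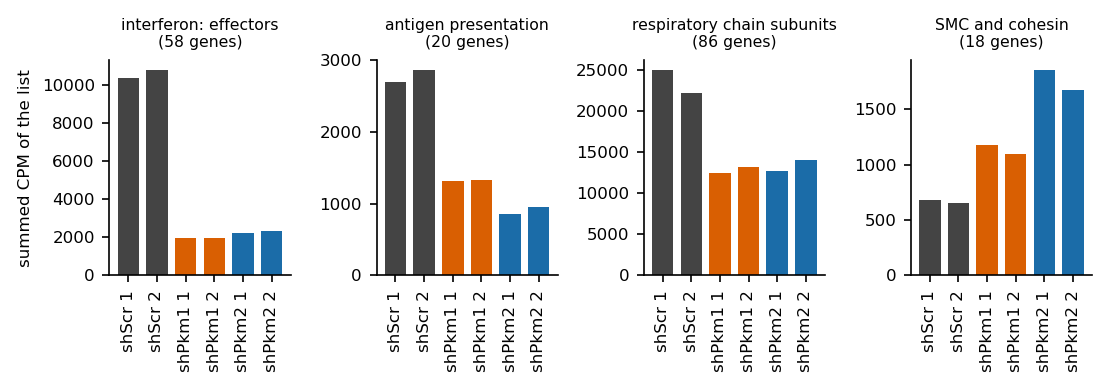
Bars give the CPM summed over all genes of a list in each of the 6 libraries, with the number of genes in brackets. Interferon effectors summed to 10344 and 10756 CPM in shScr and to between 1964 and 2354 in the hairpin libraries, while SMC and cohesin genes were higher in all 4 hairpin libraries and highest in the shPkm2-labelled libraries.

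A second group, lower by a smaller factor, encodes the respiratory chain and ATP synthase, which make most ATP in mitochondria. This group, and those for mitochondrial ribosomes, Zfp, cohesin and cilia genes below, was formed by gene name after the data had been seen. Of 82 tested subunits 80 fell, 0 rose, 78 had all 4 hairpin libraries below both controls and 72 were alike in the hairpin groups. Over all tested genes these shares were 33.5% lower, 33.8% higher, 30% below both controls and 57.3% alike. The median was -0.81 in shPkm1 and -0.83 in the shPkm2-labelled libraries, and 19 genes were shared and lower, against 2.71% of all tested genes. Uqcr11, a small subunit of complex III, had 479.5 and 396 CPM in shScr, 159 and 183 in shPkm1, and 136 and 157 in the shPkm2-labelled libraries. Cyc1, cytochrome c1 of the same complex, had 648 and 529.9 CPM in shScr, 235 and 246 in shPkm1, and 203 and 231 in the shPkm2-labelled libraries. Ndufa13 (-1.37) and Ndufs7 (-1.28) belong to complex I. The subunits with the largest falls, Cox8b (-5.72), Cox6a2 (-4.72) and Cox7a1 (-2.03), are the forms of striated muscle and were not alike. With library totals 72 of the 82 were lower, the median was -0.53 and 4 were shared. Under that scaling 21.7% of all tested genes were lower, 1.37% were shared and lower, and the median of all genes was 0.28.

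Genes of ribosomes moved less. Of 78 genes for mitochondrial ribosomal proteins 57 fell and 2 rose, with a median of -0.42, and 71 were alike. Over all tested genes 33.5% fell, 33.8% rose and 57.3% were alike. Mrpl57 was the shared member, with 60.8 and 54.8 CPM in shScr and 24.0 to 26.1 in the hairpin libraries. Of 40 genes for cytosolic ribosomal proteins 28 fell and all 40 were alike, against 33.5% and 57.3% of all tested genes. Of these 40, 0 reached 2-fold, and the median was -0.45. With library totals the counts of lower genes were 31 for the mitochondrial and 16 for the cytosolic ribosome, with medians of -0.16 and -0.19, against 21.7% of all tested genes and a median of 0.28.

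The largest shared rises were in genes of varied function. Aqp1, a water channel, had 1.65 and 1.24 CPM in shScr, 43.2 and 42.7 in shPkm1, and 30.7 and 32.0 in the shPkm2-labelled libraries, and was the shared rise above 16-fold. Chst1, a sulfotransferase acting on keratan sulfate, had 4.31 and 4.18 CPM in shScr, 33.5 and 31.5 in shPkm1, and 35.7 and 37.6 in the shPkm2-labelled libraries. Slpi, a secreted inhibitor of serine proteases, had 1.14 and 1.64 CPM in shScr, 15.5 and 16.1 in shPkm1, and 9.65 and 13.2 in the shPkm2-labelled libraries. No hairpin library overlapped a control in these genes, which the choice of shared genes required. Celf4, an RNA-binding protein, and Slc1a6, a glutamate transporter, started from under 0.6 CPM in shScr and reached 3.39 to 4.52 and 3.19 to 4.19 CPM. Plcb1, a phospholipase C, rose from 2.03 and 2.15 CPM to between 12.4 and 16.1. Brca2, a protein of DNA repair, had 3.30 and 2.82 CPM in shScr, 15.4 and 13.2 in shPkm1, and 20.7 and 19.1 in the shPkm2-labelled libraries, close to the limit for alike genes at 0.48. Lrrc75b had a log2 fold change of 2.39 and Ereg, a ligand of the epidermal growth factor receptor, one of 2.62.

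Patj was the shared fall above 8-fold that was on no interferon list and in neither family. It encodes a scaffold of tight junctions and had 191 and 164 CPM in shScr, 11.4 and 12.2 in shPkm1, and 15.1 and 14.7 in the shPkm2-labelled libraries. The fall was 13.4-fold, with a difference between hairpins of 0.34 (95% interval 0.07 to 0.60).

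Members of the transforming growth factor and bone morphogenetic protein list moved both ways. Of 18 tested, 12 rose, 3 fell and 4 were shared and higher, against 33.8%, 33.5% and 3.75% of all tested genes. Ltbp2, an extracellular matrix protein of microfibrils, had 13.5 and 21.9 CPM in shScr, 98.1 and 110 in shPkm1, and 102 and 98.1 in the shPkm2-labelled libraries, a 5.73-fold rise with a difference between hairpins of -0.06. Smad7 and Smad6, inhibitors of the pathway that its own signals induce, had 4.06 and 4.41 CPM and 3.99 and 5.08 CPM in shScr. In the hairpin libraries they had 9.49 to 12.4 and 9.89 to 12.1 CPM. Pdgfra, the receptor for platelet-derived growth factor that marks fibroblasts and mesenchymal progenitors, rose 5.20-fold, from 5.13 and 7.23 CPM to 29.9 and 31.3 in shPkm1 and 34.6 and 33.8 in the shPkm2-labelled libraries. Of the 9 other-cell markers tested 5 rose and 1 fell, against 33.8% and 33.5% of all tested genes. Thy1, a further fibroblast marker, had at most 1 count in a library, and Cd34 had 165 and 147 CPM in shPkm1 against 18.5 and 19.9 in the shPkm2-labelled libraries and 8.18 and 7.46 in shScr. Cd68, a macrophage marker, was the other shared marker at 0.57 to 1.19 CPM in shScr and 1.57 to 2.34 in the hairpin libraries. These values rest on 9 to 49 counts per library. Lyz2, another marker of blood and macrophages, had 0 and 3 counts in shScr, 16 and 15 in shPkm1, and 1 and 0 in the shPkm2-labelled libraries. The summed level of the 32 markers, most of it Acta2, ran from 12063 to 18180 CPM in shScr and from 3215 to 7623 in the hairpin libraries. The part of other cell types in the shared rises was not tested.

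Genes named zinc finger protein (Zfp), many of which encode DNA-binding repressors, rose more often than they fell. Of 353 tested 171 rose, 51 fell, 40 were shared and higher and 3 shared and lower, with a median of 0.45. Over all tested genes 33.8% rose, 33.5% fell, 3.75% were shared and higher and 2.71% shared and lower. The rises were spread unevenly over the chromosomes. On chromosome 17, 37 of 46 rose and 14 were shared, and on chromosome 13, 23 of 33 rose and 9 were shared, whereas on chromosome 7, 19 of 85 rose and 18 fell. Zfp760 on chromosome 17 had 0.254 and 1.07 CPM in shScr and 3.39 to 4.2 in the hairpin libraries. Zfp948, also on chromosome 17, had 2.22 and 1.75 CPM in shScr, 11.2 and 11 in shPkm1, and 9.46 and 7.49 in the shPkm2-labelled libraries. Zfp367 (1.57) and Zfp825 (1.54) lie on chromosome 13. Zfp genes in clusters resemble each other, so their counts are uncertain. When the 4 hairpin libraries were fitted as 1 group, 93 Zfp genes passed as higher, and 14.3% of all tested genes did.

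SMC proteins and cohesin partners, which fold and hold chromosomes together, rose in 15 of 16 tested members, and 6 were shared, against 33.8% higher and 3.75% shared and higher over all genes. Of the 16, 10 were alike in the hairpin groups, against 57.3% of all tested genes. By the direct edgeR test 11 were higher and 0 lower in the shPkm2-labelled libraries than in shPkm1, and 53% of all tested genes differed in either direction. Smc6 and Smc5, partners in a complex of DNA repair, had 29.0 and 28.1 CPM and 21.1 and 21.4 CPM in shScr. Smc6 reached 76.6 and 67.4 in shPkm1 and 104 and 88.2 in the shPkm2-labelled libraries. Smc5 reached 47.8 and 42.2, and 56.4 and 52.4. The cohesin loader Nipbl had 51.2 and 48.6 CPM in shScr, 111 and 104 in shPkm1, and 138 and 118 in the shPkm2-labelled libraries. Pds5b (1.35), a regulator of cohesin release, and its relative Pds5a (1.20) were shared too. The condensin subunits Smc2 (2.51) and Smc4 (2.19) rose without being alike between hairpins, and both act in mitosis. Among 74 genes of cilia and centrosomes, 44 rose, 3 fell and 10 were shared, including Sclt1 (1.80), the ciliary dynein Dync2h1 (1.63), Tmem107 (1.24) and Ift80 (1.19). Over all tested genes 33.8% rose, 33.5% fell and 3.75% were shared and higher. Of the 74, 47 were alike, and by the direct test 36 were higher and 7 lower in the shPkm2-labelled libraries than in shPkm1, beside the same shares as above. With the hairpins fitted as 1 group 28 of the 74 rose, against 14.3% of all tested genes.

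Transcript length moved with the pooled comparison. With genes divided into 5 equal groups by their longest annotated transcript, the median log2 fold change was -0.23 in the shortest, then -0.09, 0.02 and 0.09, and 0.28 in the longest. The median length was 4314 bases for shared higher, 2973 for shared lower and 3441 for all tested genes. It was 1005 bases for respiratory chain, 1200 for cytosolic ribosome and 5504 for SMC and cohesin genes, but 3548 for the 47 shared lower interferon genes. With the length trend of each library removed, 72 respiratory chain subunits were lower (median -0.60) and 14 SMC and cohesin genes higher (0.87), where 35.6% of all tested genes were lower and 31.6% higher. Shared respiratory chain genes then numbered 10 in place of 19, against 2.82% of all tested genes. The interferon effectors had 53 lower and a median of -2.93, and the shared set held 377 higher and 356 lower genes.

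Most muscle and cell cycle genes changed without being alike in the hairpin groups. Over all tested genes 33.5% fell, 33.8% rose and 57.3% were alike. All 52 tested contractile genes fell and all 4 hairpin libraries lay below both controls, and 1 was alike. This was Tpm1, a tropomyosin also made outside muscle, with 3586 and 2906 CPM in shScr, 1495 and 1615 in shPkm1, and 1170 and 1187 in the shPkm2-labelled libraries. The list median was -1.85 in shPkm1 and -7.05 in the shPkm2-labelled libraries. By the direct test 50 of 52 members were lower in the latter, and 53% of all tested genes differed in either direction. Of 50 cell cycle genes 47 rose and 2 were alike, with medians of 0.72 and 2.28. Ccnd1, which encodes cyclin D1, had 20.3 and 22.9 CPM in shScr, 94.5 and 93.6 in shPkm1, and 178 and 183 in the shPkm2-labelled libraries. Collagens had medians of 2.03 and -0.18, and 3 of 21 were alike. When the 4 hairpin libraries were fitted as 1 group, so that the difference between hairpins entered the spread, 13 of the 52 contractile genes, 49 of the 57 interferon effectors and 66 of the 82 respiratory chain genes passed as lower, and 17 of the 50 cell cycle genes as higher. In that fit 16.2% of all tested genes were lower and 14.3% higher.

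**Figure D5:**
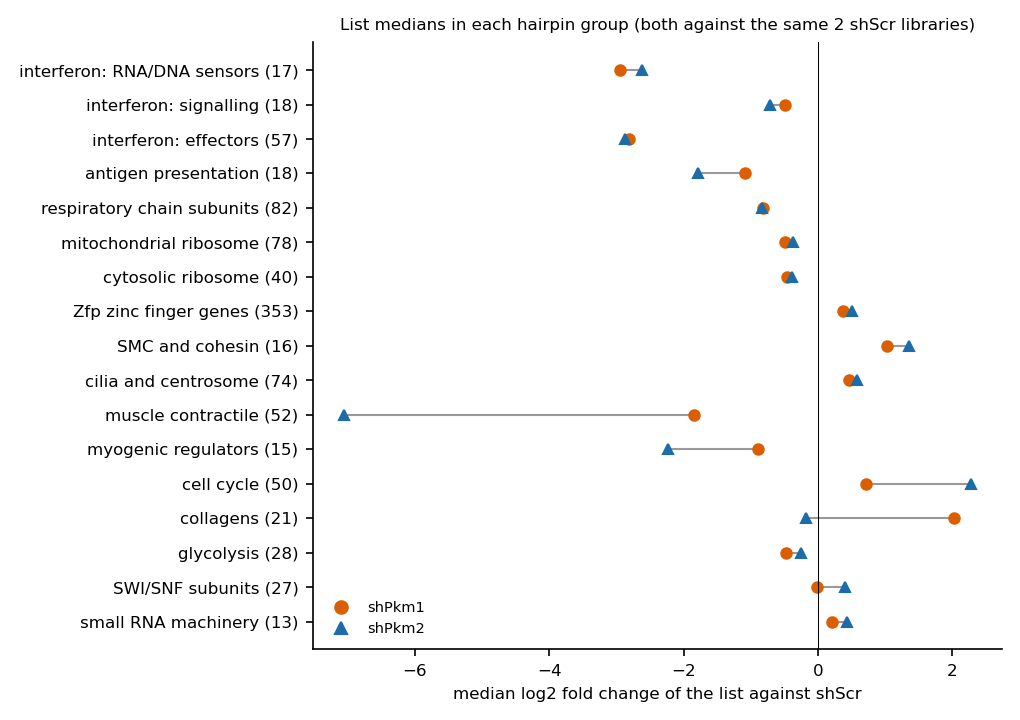
Median log2 fold change against shScr of each list in shPkm1 (circles) and in the shPkm2-labelled libraries (triangles), joined by a line, with the number of tested genes in brackets; both use the same 2 shScr libraries. The medians nearly coincide for interferon effectors at -2.81 and -2.87 and stand far apart for muscle contractile genes at -1.85 and -7.05. Of the 57 effectors 15 were higher and 12 lower in the shPkm2-labelled libraries than in shPkm1 by the direct test, and 53% of all tested genes differed in either direction.

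The bound for alike genes runs through a continuum. Eea1, an endosomal tether, and Rnf213, an interferon-induced ubiquitin ligase, lie just inside it, both with a difference between hairpins of 0.50. Rnf213 had 404 and 466 CPM in shScr, 79.4 and 80.9 in shPkm1, and 114 and 113 in the shPkm2-labelled libraries. Cachd1 and Gsap lie just outside it, also at 0.50 after rounding, with pooled log2 fold changes of 1.57 and 1.33.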

How the data were processed

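RNA was sequenced from 6 C2C12 libraries. The submitters' processing notes name HISAT, StringTie, Bowtie, RSEM, DESeq2 and build mm10, without versions or roles. Per the file headers, the deposited table gives an estimated count, an FPKM and a TPM per transcript (57920). FPKM and TPM are the authors' values per transcript length. Group means in 9 columns were not used. Estimated counts were summed per gene and rounded. Symbols matched 17445 of 17558 genes, and the rest held at most 0.148% of a library.

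Genes were filtered with filterByExpr (minimum count 10), scaled by TMM and fitted in edgeR 4.0.16 with 1 coefficient per group. The contrast was the mean of both hairpin groups minus shScr, two-sided. Exact permutation of 4 against 2 libraries, with the one-sided p doubled, cannot give p below 0.133. The code was tested on simulated data.

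Named are Pkm, the 12 largest shared rises and falls with a mean of at least 50 counts, up to 4 leading members per list (8 for interferon lists), and genes nearest the bound for alike genes. Members and lists were chosen with earlier results of these data known. Alternatives were DESeq2 1.42.0, limma 3.58.1 on log2(FPKM + 1) and log2(FPKM + 0.1), other scalings, filters and bounds, a replicate block, hairpins as 1 group, each library left out and, added after seeing the data, removal of the length trend. Counts of 3 or less were taken as the floor, which covers counting error only. A few members of the lists are not reported here.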

Additional observations from a re-analysis of the deposited data

Results flagged for a closer look

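Ereg had 5.48 CPM in shPkm1 replicate 1, set apart from the other 3 hairpin libraries at 3.84, 3.86 and 3.91 CPM by more than Dixon's 95% limit for 4 values. It was the 1 such case among 24 genes examined this way, and chance sets apart about 1 group in 20. All 4 values lay above the shScr libraries at 0.570 and 0.791 CPM.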

How the results depend on the processing

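Of 12643 tested genes, 4271 were higher and 4238 lower. Counts of lower genes were 2742 with library totals, and 2708 and 2727 with limma at pseudocounts 1 and 0.1. With the hairpins as 1 group 1814 were higher and 2049 lower. Genes below both controls (3790) numbered 2457 with totals and 2475 with limma. Shared higher genes (474) were 809 with totals, 792 with limma at 0.1, 874 when alike within 1 with no bound on the interval, 1222 at 1.5-fold and 39 at 4-fold. Shared lower genes (343) were 173, 217 with limma at 1, 663, 1139 and 62. Leaving out 1 library gave 390 to 546 shared higher, 296 to 420 shared lower, 3884 to 4277 higher and 3877 to 4258 lower genes. Interferon list members among the shared lower genes (47) ranged from 42 to 52 over the other scalings, filters, tools and left-out libraries, and were 33 when alike within 0.3 and 73 within 1 with no interval bound. With the hairpins as 1 group the calls were 13 muscle contractile genes lower, 17 cell cycle genes higher and 93 Zfp genes higher. The small RNA machinery list turned from a median of 0.33 to -0.011 when the length trend was removed. Pkm passed with DESeq2 (-0.22, adjusted p 0.0266) and without shScr replicate 1 (-0.31, adjusted p 0.0113). Same-numbered libraries did not deviate together (correlations -0.03, 0.04 and 0.05). With the replicate block 4277 genes were higher, 4206 lower, 473 shared higher and 345 shared lower. The causes of these shifts were not tested.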

Other observations

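Some genes outside the groups above were also shared. Of 16 tested targets of p53, 10 fell and 1 rose, against 33.5% and 33.8% of all tested genes. Bbc3, which encodes the death protein PUMA, had 27.1 and 22.8 CPM in shScr and 9.69 to 10.8 in the hairpin libraries. Aen, a nuclease, fell by 1.14 on the log2 scale. Cdkn1a, the cell cycle inhibitor p21, fell in both groups but not alike, by 0.89 in shPkm1 and 3.81 in the shPkm2-labelled libraries. The NF-kappaB targets moved both ways, with 5 of 11 tested lower and 4 higher, beside the same shares over all genes. Vcam1 rose by 1.41 on the log2 scale without being alike. Sod2, the mitochondrial superoxide dismutase, was shared and had 170 and 156 CPM in shScr and 57.2 to 72.3 in the hairpin libraries. Tnfaip3, an inhibitor of the NF-kappaB pathway, was shared too, with 60.7 and 49.5 CPM in shScr and 20.3 to 27.0 in the hairpin libraries. Atf3 (-1.34), a stress-induced transcription factor, was shared and lower. In its list of stress response genes 8 of 18 tested rose and 5 fell, beside the same shares over all genes. Csf1, the macrophage growth factor, had 165 and 194 CPM in shScr, 451 and 457 in shPkm1, and 342 and 346 in the shPkm2-labelled libraries. Peg10 (1.64), an imprinted gene derived from a retrotransposon, Lfng (1.5), a glycosyltransferase acting on Notch, and Irs2 (1.14), an adaptor of insulin receptors, were shared and higher.

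Chromosome 13 was singled out after its values were seen. There, 44 of 475 tested genes were shared and higher and 1 was shared and lower, with a median of 0.38 in shPkm1 and 0.29 in the shPkm2-labelled libraries. That is 9.26% shared and higher and 0.211% shared and lower, against 3.75% and 2.71% of all tested genes. Chromosome Y had 1 tested gene, and on the other chromosomes the share that was shared and higher ran from 1.37% to 5.74% and the share that was shared and lower from 0.281% to 4.48%. The lowest of these was chromosome 18, with 1 of 356. The 44 genes include 9 Zfp genes.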
